A study of Rattus norvegicus with 10 samples.

Results

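Prps2 and other genes of phosphoribosyl pyrophosphate and purine synthesis or salvage were measured in the abdominal aorta. The samples came from 2 inbred rat strains, BN and LOU. The set holds 9 genes, Prps1, Prps2, Prpsap1, Prpsap2, Ppat, Gart, Paics, Hprt1 and Aprt, and takes every probe set annotated with 1 of these symbols alone, 11 of 15866 probe sets and 8 of 10411 named genes. Paics has no value here, because the probe set that lists it also lists a second locus. The genes were chosen because Prps2 was known to differ between the strains in these data, so the difference between BN and LOU in the members is given as a description without a p-value.

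Each strain, BN (Brown Norway) and LOU, had 5 Affymetrix arrays of total RNA from untreated rats labelled as 5 weeks old, although the growth notes allow an age of up to 18 weeks. The tissue label is abdominal aorta, and the extraction notes also mention thoracic aorta. Sex is not labelled, and nothing ties an array to a separate rat, so errors and p-values measure the spread between arrays, which may be technical. The study's title concerns the genetic basis of arterial and renal traits of the BN rat. Signals are linear and in arbitrary units, and a log2 difference is BN minus LOU throughout. A signal was called above background when it exceeded the value that 95% of the 45 bacterial control probe sets on the array did not reach, a level of 21.2 to 49.2. The smooth muscle genes Acta2 (smooth muscle actin) and Myh11 (smooth muscle myosin) and elastin (Eln), which define the artery wall, had signals of at least 8579 on every array. BN array 3 stood apart in nerve markers and LOU array 1 in lymphocyte and macrophage markers, and the Prps2 difference was −1.50 to −1.31 without the former and −1.52 to −1.34 without the latter over its 3 probe sets (log2). In whole tissue, fewer cells of a type and less RNA per cell cannot be told apart.

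Phosphoribosyl pyrophosphate, or PRPP, is the activated ribose on which purine nucleotides are built, and PRPP synthetase makes it from ribose 5-phosphate and ATP. Prps1 and Prps2 encode closely related catalytic subunits of that enzyme, and Prpsap1 and Prpsap2 encode associated proteins that lack activity of their own and are thought to restrain it. Ppat spends PRPP in the committed step of new purine synthesis, Gart and Paics catalyse later steps of the route, and Hprt1 and Aprt spend PRPP to recover free purine bases.

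Prps2 was lower in every BN array than in any LOU array in all 3 of its probe sets. In the brightest, 1375932_at, the BN signals were 155.5, 119.4, 135.1, 138.8 and 183.9 on arrays 1 to 5. The LOU signals were 352.7, 324.0, 428.2, 389.4 and 338.5. The highest BN array lay well below the lowest LOU array, and the means were 147 ± 24.5 (SD, n = 5) in BN and 367 ± 42.2 (n = 5) in LOU. The log2 difference was −1.33 (SE 0.14, 95% interval −1.65 to −1.01), a 2.52-fold higher level in LOU.

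In the probe set 1398262_at, BN signals were 75.7, 94.5, 107.0, 80.4 and 84.7. LOU signals were 187.9, 279.5, 226.3, 252.8 and 247.9, and LOU array 1 was the lowest of its strain. The means were 88.5 ± 12.5 in BN and 239 ± 34.2 in LOU, a log2 difference of −1.43 (SE 0.15, 95% interval −1.76 to −1.10) or 2.70-fold. The third Prps2 probe set, 1368551_at, was dim. Its BN signals were 46.9, 16.5, 30.2, 34.9 and 27.6, of which 2 of 5 were above background, and its LOU signals were 66.9, 62.0, 76.0, 101.4 and 80.5, all above background. The strains did not overlap there either, with a log2 difference of −1.37 (SE 0.26, 95% interval −1.95 to −0.79).

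The dim value is not exact: it was −1.12 with signals under 32 set to 32 and −1.001 with a pseudocount of 16, where 1375932_at gave −1.33 and −1.24. All 3 probe sets were past the adjusted threshold of 0.05 in limma's fit over all probe sets, and so were 0.788% of all probe sets, 0.542% as lower in BN and 0.246% as higher. Every BN array lay below every LOU array in 2.77% of all probe sets. Nothing is read from these shares for Prps2, because this difference chose it. A striated muscle marker list separated the strains as well, with list means of 0.16 to 0.74 in BN and −0.76 to −0.16 in LOU (log2, each gene centred over the arrays). Of its 9 measured markers 6 were positive, limma called 0, and 1, Myh4, was above background on no array. The differences were uneven: the largest were 3.73 for Mb and 1.18 for Myh1. Acta1, Tnnt3 and Myh4 were negative, at −0.06, −0.20 and −0.43. The summed signal of the list, in which Myh1 was the brightest marker, was 3379 to 6075 in BN and 2086 to 3469 in LOU. A fibroblast list had means of −0.51 to −0.06 in BN and −0.11 to 0.68 in LOU, with 1 of 6 markers positive, 0 called and each above background on at least 1 array. Its summed signal was 18277 to 27395 in BN and 21675 to 30981 in LOU. The part of these tissues in the Prps2 difference was not tested. Without any 1 array, 1375932_at and 1398262_at stayed past the threshold in 10 of 10 fits, and the dim 1368551_at in 1 of 10, the fit without BN array 1. With the replicate number as a block, 1 of the 3 was past it.

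**Figure D1:**
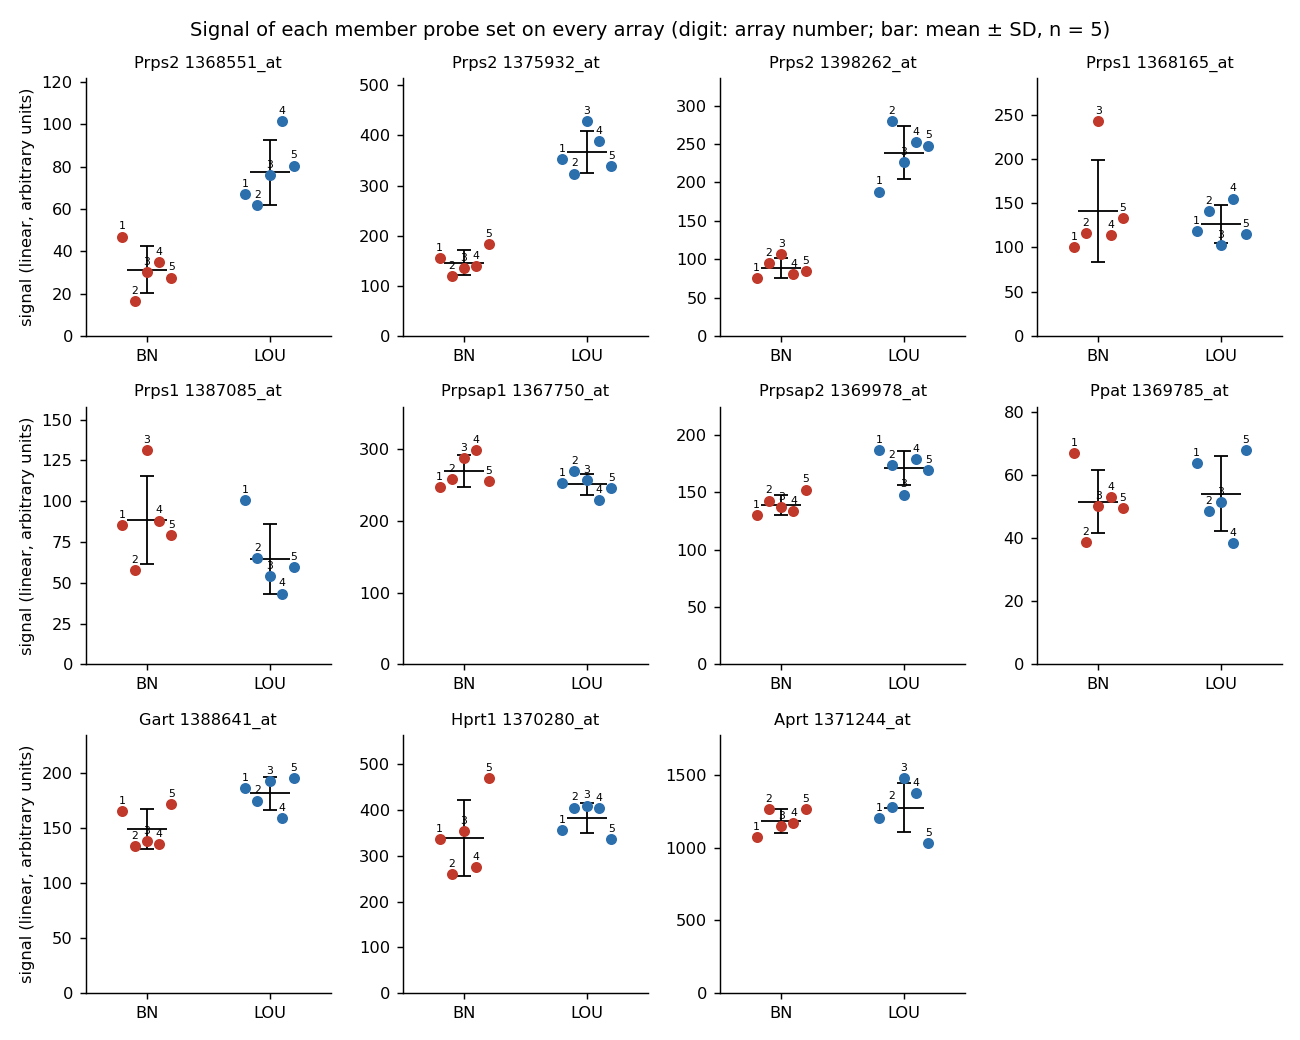
Linear signal (y axes, from 0, arbitrary units) of the 11 member probe sets on the 5 BN arrays (red) and 5 LOU arrays (blue), with array numbers beside the points and black bars for mean ± SD. The 3 Prps2 panels are the ones in which the strains do not overlap, and BN array 3 stands above the others in both Prps1 panels.

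Within a strain, 1398262_at did not follow the other Prps2 probe sets from array to array. After each strain's mean was taken off, 1375932_at and 1398262_at had a Pearson correlation of −0.38 (Spearman −0.56) over 10 arrays, and −0.45 without the 2 arrays farthest from the median of 1375932_at. The dim 1368551_at had 0.48 with 1375932_at (Spearman 0.41), which was 0.92 without the 2 arrays farthest in 1375932_at and 0.11 without the 2 farthest in 1368551_at, and −0.29 with 1398262_at (Spearman −0.30), which was 0.05. These are descriptions over arrays that share a scaling. BN array 2 was the lowest BN array in 1375932_at and 1368551_at but the second highest in 1398262_at. LOU array 1 was the lowest LOU array in 1398262_at and the third highest in 1375932_at. How far 1368551_at and 1375932_at moved together within strains thus rested on which arrays were left out.

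**Figure D2:**
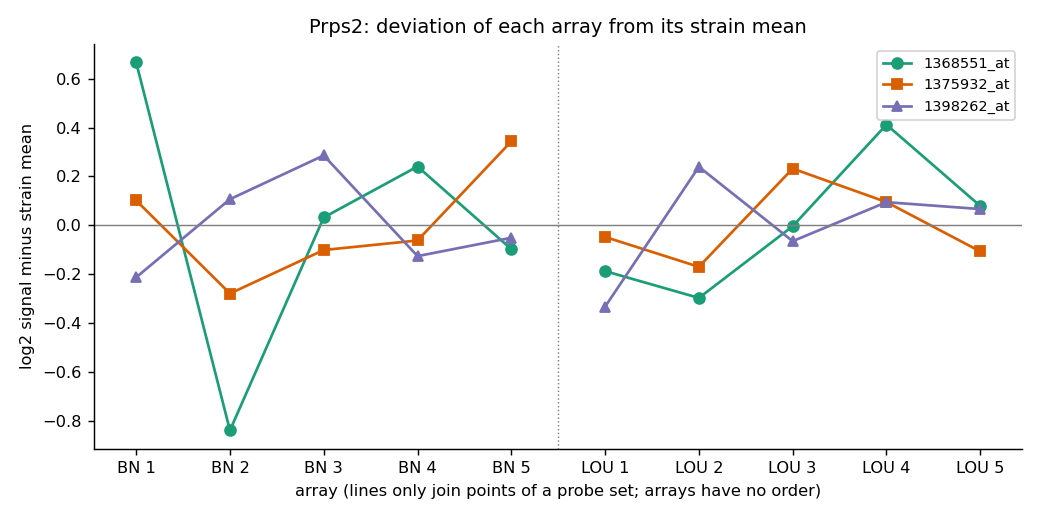
Log2 signal of the 3 Prps2 probe sets on each array after the mean of its strain is taken off (y axis), for BN arrays 1 to 5 and LOU arrays 1 to 5 (x axis; lines join the points of a probe set and stand for no order). The dim 1368551_at spreads most, from 0.67 on BN array 1 to −0.84 on BN array 2, and 1398262_at departs from the other 2 lines.

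Prps1, the paralogue, had no difference of this kind. In 1368165_at the BN signals were 100.3, 116.1, 242.5, 114.3 and 132.8, and the LOU signals were 118.6, 141.2, 102.5, 155.1 and 114.9. The strains overlapped, and BN array 3 was far above every other array. The log2 difference was 0.10 (SE 0.24, 95% interval −0.43 to 0.63), and −0.12 without BN array 3, where the sign turned. In 1387085_at the BN signals were 85.6, 57.8, 131.5, 88.1 and 79.4, and the LOU signals were 100.6, 65.2, 54.3, 43.4 and 59.7. Here BN was above the LOU median on 4 of 5 arrays, with BN array 3 again the highest of BN and LOU array 1 the highest of LOU. The log2 difference was 0.46 (SE 0.26, 95% interval −0.12 to 1.04).

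BN array 3 also had the highest mean of a nerve marker list, though not the highest signal of every marker in it. Mag, at 87.4, was the lowest of BN there, and Prx, at 83.8, was below BN arrays 2 and 4 (99.1 and 107.7). The neuron genes Dbh, Th and Prph had 3145.7, 2608.4 and 2380.2 there, and at most 286.4, 366.0 and 329.7 in LOU. The mean of 11 measured nerve and Schwann cell markers, each centred over the 10 arrays on the log2 scale, was 2.45 on BN array 3, between −0.25 and 0.26 on the other BN arrays and between −0.996 and 0.44 on LOU arrays. The summed signal of these markers was 15104 on BN array 3 and at most 4158 on any other BN array, and 2558 to 3943 on LOU arrays. All 11 had a positive difference, and each was above background on at least 1 array. The myelin gene Mbp passed limma's test (log2 1.73, adjusted p = 0.0460), with 298.4 to 769.8 in BN and 75.9 to 198.2 in LOU, which did not overlap. After strain means were taken off, the list mean and Prps1 had a Pearson correlation of 0.75 for 1368165_at (Spearman 0.56) and 0.77 for 1387085_at (Spearman 0.48) over 10 arrays. Without the 2 arrays farthest from the median list mean these were 0.41 and 0.08, and without BN array 3 alone −0.02 and 0.69. LOU array 1 had the highest nerve list mean of LOU, 0.44, and the highest LOU signal in 1387085_at. That probe set also had a correlation of 0.66 with the lymphocyte list and 0.57 with the macrophage list, where 1368165_at had −0.06 and −0.19. The part of nerve tissue, lymphocytes and macrophages in the Prps1 signal was not tested. In Prps2, BN array 3 lay inside the BN range in 1375932_at and 1368551_at and was the highest BN array, at 107.0, in 1398262_at.

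**Figure D3:**
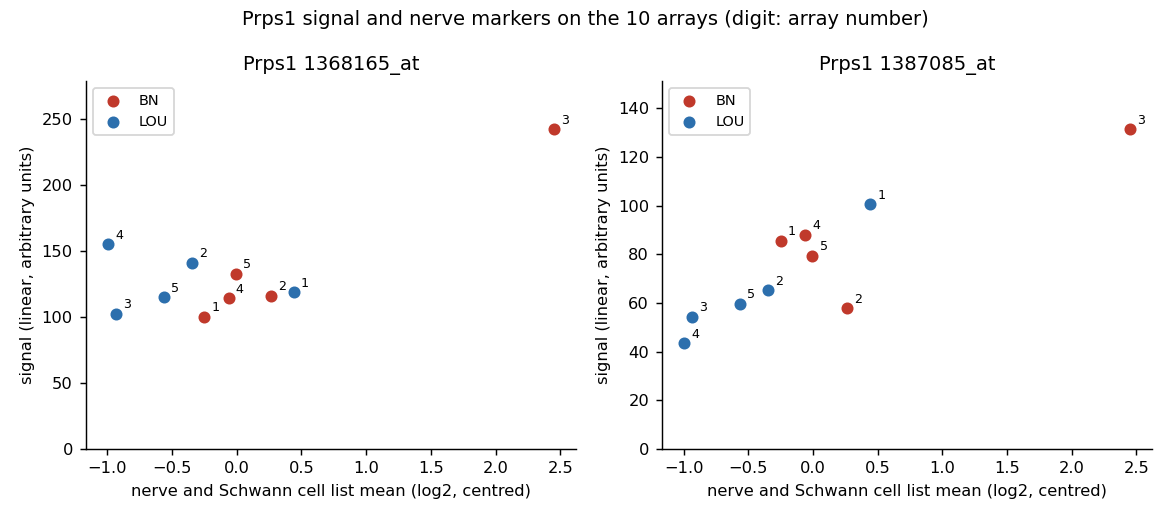
Signal of the 2 Prps1 probe sets (y axes, from 0, arbitrary units) against the mean of the nerve and Schwann cell list (x axes, log2, each gene centred over the arrays) for the 5 BN (red) and 5 LOU (blue) arrays, with array numbers. BN array 3, at a list mean of 2.45, has the highest signal in both panels, 242.5 and 131.5.

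The promoters of the paralogues are shown because both genes lie on the X chromosome and only Prps2 was chosen for a strain difference. Each line gives the 250 bases before the annotated start, plus strand of GRCr8, from RefSeq, a table that held all 9 genes. GRCr8 was built from a BN rat, and no LOU sequence was used here. Capitals mark matches on either strand to the GC box GGGCGG or the CCAAT box, CCAAT, and matches that overlap run together.
Prps2, chrX:30592595-30592844: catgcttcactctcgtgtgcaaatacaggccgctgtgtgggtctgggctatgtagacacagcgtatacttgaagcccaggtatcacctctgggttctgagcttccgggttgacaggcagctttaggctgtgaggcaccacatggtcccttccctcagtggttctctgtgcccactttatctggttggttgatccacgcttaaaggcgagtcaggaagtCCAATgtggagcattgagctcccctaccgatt
Prps1, chrX:108920413-108920662: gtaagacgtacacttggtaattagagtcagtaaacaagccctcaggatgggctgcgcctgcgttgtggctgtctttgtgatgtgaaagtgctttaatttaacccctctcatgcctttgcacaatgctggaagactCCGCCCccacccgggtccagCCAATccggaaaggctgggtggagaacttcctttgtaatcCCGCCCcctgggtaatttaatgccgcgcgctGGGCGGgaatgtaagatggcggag
The Prps1 window held 3 GC boxes and 1 CCAAT box, and the Prps2 window held 1 CCAAT box and no GC box. A GC box stood in 7 of the 9 members' windows and in 30.5% of 33469 promoters of the same length, and a CCAAT box in 4 of 9 and in 34.0%. The E-box CACGTG, the motif that Myc can bind, stood in 5.59% of all promoters and in none of the 9 windows, and the TATA box TATAAA in 12.9% and in 1 member, Aprt. These are matches of letters in the BN reference, not sites, and say nothing about what binds there or about LOU.

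Of the associated proteins, Prpsap1 barely differed between strains. Its BN signals were 246.9, 258.2, 287.2, 298.9 and 255.7, and its LOU signals were 252.6, 269.4, 257.1, 229.4 and 246.0. The ranges overlapped, and the log2 difference was 0.10 (SE 0.11, 95% interval −0.14 to 0.34). Prpsap2 had BN signals of 130.3, 142.9, 137.1, 133.9 and 152.4 and LOU signals of 187.1, 173.5, 148.1, 179.1 and 169.4. BN array 5 was the 1 BN array above the lowest LOU array, that of LOU array 3. The means were 139 ± 8.65 in BN and 171 ± 14.6 in LOU, a log2 difference of −0.30 (SE 0.11, 95% interval −0.54 to −0.06). This had the sign of the Prps2 difference and was much smaller.

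Setting each Prps2 probe set against each of the 4 probe sets of Prps1, Prpsap1 and Prpsap2 gave 12 pairs, and no p is given for them, since the Prps2 difference chose the gene. The Prps2 difference was more negative in all 12, with a difference of the log2 differences of −1.89 to −1.03 and standard errors of 0.13 to 0.38. The least of these was between 1375932_at and Prpsap2, −1.03 (SE 0.15). The within-array log2 ratio of Prps2 to the other probe set was below every LOU array on every BN array in 10 of the 12 pairs. The other 2 pairs set the dim 1368551_at against Prps1 1368165_at and against Prpsap2. Pairs reuse probe sets and arrays, and their sign follows largely from the choice of Prps2, so nothing is read from these counts. A ratio within an array shows that the 2 probe sets changed unequally, and no level of a probe set is set against another's.

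Among the members, the 2 measured enzymes of new purine synthesis, Ppat and Gart, had smaller differences than Prps2. Atic and Adsl, which also act in that route, are no members and are given further below. Ppat, the amidotransferase, had signals of 67.0, 38.8, 50.2, 53.0 and 49.5 in BN and 64.0, 48.7, 51.4, 38.6 and 68.1 in LOU. These ranges were nearly the same, with a log2 difference of −0.06 (SE 0.19, 95% interval −0.49 to 0.37), and leaving out single arrays gave −0.17 to 0.04, on both sides of 0. Gart, which encodes an enzyme for several steps of the route, had signals of 165.0, 133.4, 138.1, 134.9 and 171.8 in BN and 186.2, 174.7, 192.5, 158.4 and 194.9 in LOU. BN arrays 1 and 5 reached into the LOU range, and the log2 difference was −0.29 (SE 0.12, 95% interval −0.57 to −0.02).

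The salvage enzymes overlapped between strains. Hprt1, which recovers hypoxanthine and guanine, had signals of 336.6, 260.3, 354.1, 275.8 and 469.8 in BN and 355.9, 405.8, 410.0, 405.3 and 337.5 in LOU. BN array 5 was the highest of all arrays and BN array 2 the lowest, and the log2 difference was −0.20 (SE 0.17, 95% interval −0.58 to 0.17). Aprt, which recovers adenine, had signals of 1076.9, 1266.2, 1151.1, 1168.4 and 1265.9 in BN and 1208.1, 1284.2, 1480.2, 1376.3 and 1034.1 in LOU. LOU array 5 was below all BN arrays, and the log2 difference was −0.10 (SE 0.13, 95% interval −0.38 to 0.18).

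Among the 8 member probe sets other than those of Prps2, none was past the adjusted threshold in the fit over all probe sets, nor under any of the 18 alternative settings that kept it. Their median log2 difference was −0.08, from −0.30 to 0.46, beside −0.03 over all 15866 probe sets. With Prps2 the 11 had a median of −0.20, and 8 of them were negative. The 95% intervals of Prpsap1 and Aprt lie within −0.38 and 0.34. Those of all 8 exclude a difference as large as the −1.33 of Prps2 1375932_at in either direction, and that of Prps1 1387085_at, up to 1.04, came nearest.

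Hprt1 followed the brightest Prps2 probe set within strains more closely than any other member gene. Its Pearson correlation with 1375932_at over 10 arrays, strain means taken off, was 0.78 (Spearman 0.61), and 0.52 without the 2 farthest arrays, and 1.55% of all probe sets had a higher value. Both had their highest BN signal on BN array 5 and their lowest on BN array 2. Prps2 1398262_at did not share this order, with 84.7 on BN array 5 and 94.5 on BN array 2. These arrays were also at the ends of the adipocyte list, whose mean over 7 measured markers was −1.04 on BN array 5 and 0.69 on BN array 2, with LOU arrays from −0.68 to 0.79. Of these 7 markers 4 were positive in BN, 1 was above background on no array, and the summed signal was 2362 to 11143 in BN and 3725 to 14592 in LOU. The list mean had a Pearson correlation of −0.74 with Prps2 1375932_at and −0.74 with Hprt1 within strains, and −0.26 with Prps2 1398262_at. A list of 5 brown adipocyte genes had −0.76, −0.76 and −0.14. All 5 were positive and limma called 0, with list means of −1.55 to 2.19 in BN and −2.08 to 0.45 in LOU. Their summed signal was 1977 to 18921 in BN and 1212 to 10258 in LOU. A smooth muscle list of 7 measured genes had correlations of 0.69, 0.45 and −0.12. Of these genes 5 were positive and 0 called, with means of −0.17 to 0.33 in BN and −0.28 to 0.20 in LOU. The part of fat tissue and smooth muscle in these values was not tested.

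By the same measure the genes most like Prps2 1375932_at were Shb, Sgsm3, Swi5, Gucy1a1 and Cetn3, with Pearson correlations of 0.95, 0.94, 0.93, 0.92 and 0.92. Gucy1a1 encodes a subunit of the nitric oxide receptor guanylate cyclase of smooth muscle, Shb an adaptor of tyrosine kinase signalling, Swi5 a recombination repair protein and Cetn3 a centrin. Sgsm3 measured 6.22 ± 2.43 in BN and 5.20 ± 1.58 in LOU, far below background. At the other end were Slc25a44, a mitochondrial carrier, at −0.95, and Hrk, a cell death gene, at −0.95. These are descriptions, picked as the extremes of all probe sets over 10 arrays. With any 1 array left out, 1 or 2 of the 5 most alike stayed among the 5, and 2 did by rank correlation. None of the 5 passed the test between strains, and Swi5 and Gucy1a1 had log2 differences of −0.57 and −0.41 (limma adjusted p = 0.122 and 0.358).

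Beyond the members, 8 lists covered purine metabolism and the pentose phosphate route, folate supply, other users of PRPP, growth regulators and extracellular purine signalling. Their genes are called other purine genes below, though not all act on purines. Of 75 listed genes 61 were measured, each read from its brightest probe set. Limma's test called 0 of the 61, beside 0.72% of all named genes. An unadjusted p under 0.05 was found in 11 of the 61 (18.0%), beside 13.2% of all named genes. The median log2 difference of the 61 was 0.03, and 23 were negative (37.7%), beside 52.4% of all named genes.

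P2ry2, a receptor for extracellular ATP and UTP, came nearest. Its signals were 75.8, 54.8, 52.2, 86.5 and 87.1 in BN and 97.6, 107.3, 161.3, 163.3 and 158.5 in LOU, which did not overlap (all named and unnamed probe sets, 4.18%). The log2 difference was −0.95 (SE 0.22, limma adjusted p = 0.0963), and over 18 alternatives the adjusted p ran from 0.0339, without the dimmest 40% of probe sets, to 0.213. The nucleoside transporter gene Slc29a2, in the same list of 10 extracellular purine genes, differed by 0.38 (adjusted p = 0.262), and a second, dimmer probe set by −0.09.

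In the list of enzymes that make inosine monophosphate or turn it into AMP and GMP, 4 genes were measured, Atic, Adsl, Adss1 and Adss2. The listed genes of the GMP branch, Impdh1, Impdh2 and Gmps, were not read. Adsl (adenylosuccinate lyase) differed by 0.30 (limma adjusted p = 0.274) and Adss2 (adenylosuccinate synthase) by −0.28 (adjusted p = 0.409). Atic differed by −0.26 (adjusted p = 0.565). Adsl measured 289 ± 24.3 in BN and 234 ± 17.6 in LOU. Of 15 salvage and kinase genes, the guanine deaminase gene Gda measured 418 ± 114 in BN and 750.2 ± 193 in LOU (log2 −0.85, limma adjusted p = 0.145), and a second probe set gave −0.52. The guanylate kinase gene Guk1 had signals of 582 ± 45.8 and 476 ± 36.0 that did not overlap (log2 0.29, adjusted p = 0.287). In purine degradation, xanthine dehydrogenase (Xdh) differed by 0.03 and urate oxidase (Uox) by 0.11, both with intervals that include 0.

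The pentose phosphate route, which supplies ribose 5-phosphate, had 7 of 8 measured genes positive and a median of 0.09. For transaldolase (Taldo1) the signals were 1412, 2083, 975, 1185 and 626 in BN and 881.0, 836, 492, 397 and 655 in LOU (log2 0.90, limma adjusted p = 0.281). Its highest signals, on BN arrays 2 and 1, were on the BN arrays with the highest adipocyte means, 0.69 and 0.52. LOU array 1 had the highest adipocyte mean of all arrays, 0.79, and a Taldo1 signal of 881.0, below BN arrays 1 to 4. The brown adipocyte list had means of 2.19 and 1.80 on BN arrays 2 and 1 and 0.45 on LOU array 1. The part of fat tissue was not tested. Ribokinase (Rbks), which phosphorylates free ribose, differed by −0.42 (adjusted p = 0.282). Among 7 genes of folate one-carbon supply, Mthfd1l differed by −1.01 (SE 0.53, adjusted p = 0.452) on signals of which 4 of 10 were above background, and Aldh1l1 by 0.40 (adjusted p = 0.598).

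Of 6 other users of PRPP, the nicotinate phosphoribosyltransferase gene Naprt differed by 0.33 (adjusted p = 0.303) and Umps, of pyrimidine synthesis, by 0.05 (limma adjusted p = 0.883). Of 9 genes listed as growth regulators of the synthetase, among them Myc, Eif4e and Mtor, the S6 kinase gene Rps6kb1 differed by −0.65 (SE 0.19, adjusted p = 0.180) and the Myc partner gene Max by 0.13 (adjusted p = 0.708). A second Rps6kb1 probe set gave −0.12 and a second Max probe set −0.16.

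**Figure D4:**
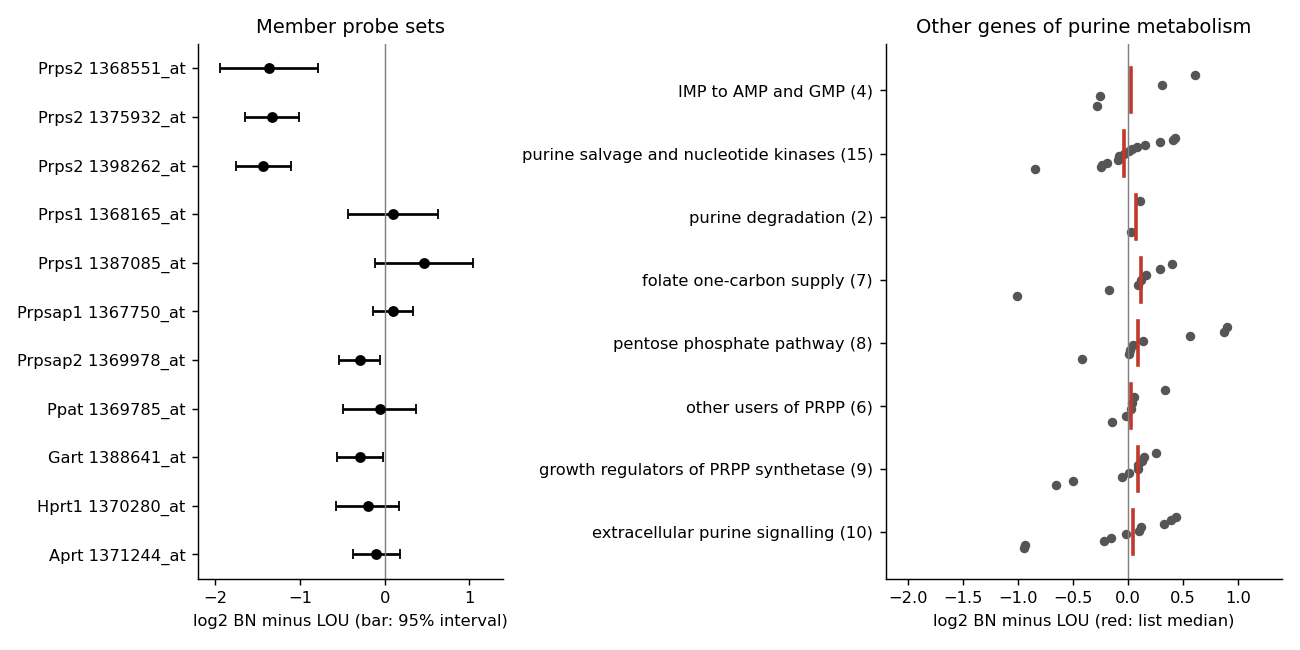
Log2 difference between BN and LOU (x axes) of the 11 member probe sets with 95% intervals (left) and of the 61 other purine genes (right). The latter, from lists of purine metabolism, related routes and regulators, have 1 point per gene. They are grouped by list, with the number measured and a red bar at the list median. The 3 Prps2 probe sets lie between −1.43 and −1.33, and the list medians lie between −0.04 and 0.12.

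Each of the 10 measured genes taken beside Prps2 on the X chromosome had a difference in the other direction or smaller than that of Prps2. Of the 5 nearest measured genes on each side, 3 of 10 had a negative log2 difference, the median was 0.15, and limma's test called 0 of them, with 2 of 10 at an unadjusted p under 0.05. The nearest on either side were Msl3, of a chromatin complex, with 7 annotated genes between, at −0.24 (SE 0.17, adjusted p = 0.601), and the RNA sensor gene Tlr7, with 1 between, whose signals were above background on 1 of 10 arrays. The enamel gene Amelx had the most negative difference of the 10, −1.08 (SE 0.61, limma adjusted p = 0.491), with 2 of 10 arrays above background. Tmsb4x, which encodes an actin-binding peptide, was higher in every BN array than in any LOU array, 9465 ± 784 against 7393 ± 205, a log2 difference of 0.35 (limma adjusted p = 0.173). Over all members, 80 neighbouring genes were measured and 2 passed, beside 0.72% of all named genes. They were Gpc3, a growth-regulating glypican near Hprt1, which fell by 1.61 in BN (log2, limma adjusted p = 0.0460), and Ifnar2, an interferon receptor subunit near Gart, which rose by 0.68 (adjusted p = 0.0225). Gpc3 stayed past the threshold in 1 of 10 fits without 1 array and Ifnar2 in 3 of 10.

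**Figure D5:**
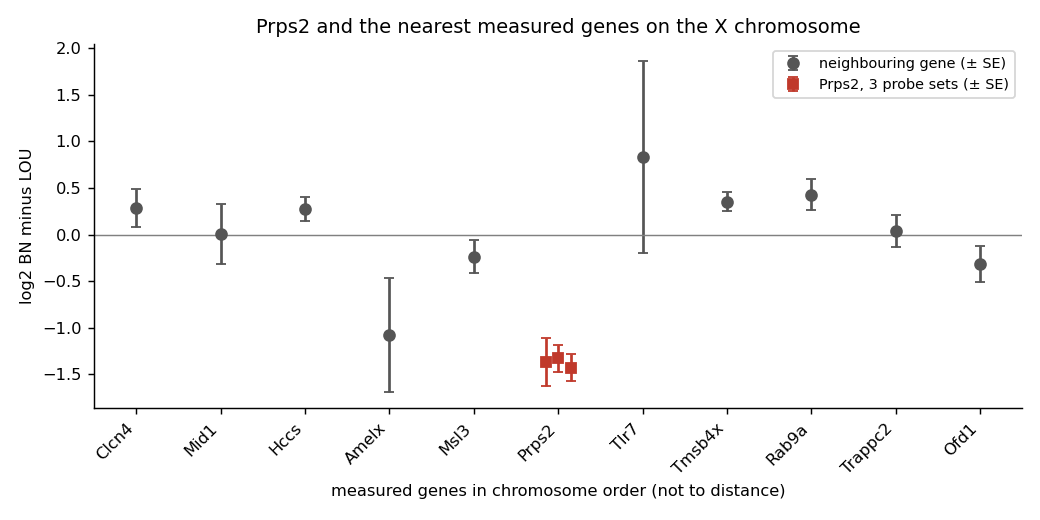
Log2 difference between BN and LOU (y axis, bars ± SE) of the 3 Prps2 probe sets (red squares) and the 5 nearest measured genes on each side (grey points) in chromosome order, not to distance (x axis). Prps2 lies at −1.43 to −1.33, and the called neighbours number 0 of 10.

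Prps1, Prps2 and Hprt1 are all X-linked, and the labels give no sex. The probe set for Xist, the RNA of the inactive X, was above background on 0 of 10 arrays, with signals of 1.0 to 3.1. Of proliferation markers, which are high in dividing cells, where purine demand is large, 8 of 9 measured genes had a negative difference and 0 passed limma's test. Their list means were −0.22 to 0.05 in BN and −0.03 to 0.33 in LOU. The summed signal was 1065 to 1247 in BN and 1209 to 1458 in LOU, with every marker above background on at least 1 array. The part of dividing cells in the Prps2 difference was not tested.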

How the data were processed

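The authors hybridised biotin-labelled cRNA of the abdominal aorta to Affymetrix 3′ arrays, per the labels' protocols, 5 for BN and 5 for LOU. Each deposited value is an intensity in linear units for 1 probe set, although the submitters' processing notes name RMA, which gives log2 values. The 2% trimmed mean was 200.05 to 200.06 on every array, so the values were taken as scaled signals. The planned test was run on log2(signal), with 4 zeros set to 0.1. After 57 controls were left out, 15866 probe sets were fitted with limma 3.58.1 in R 4.3.3 (strain as the only term, eBayes, two-sided, Benjamini-Hochberg, threshold 0.05), and the scripts were tested on simulated data. Signal over background and the number of arrays limit the precision.

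Of these probe sets, 12783 had 1 symbol, 312 several and 2771 none in the annotation used, and 12748 symbols were updated through gene identifiers in the RefSeq table of GRCr8, used otherwise for gene order and promoters. A gene that is no member was represented by its brightest probe set (mean log2 signal). The members, gene lists and tests were chosen with earlier results of these data known. Members were all named, and other genes by adjusted p in their list, by place beside a member or by likeness to Prps2. Alternatives were other scalings, filters, floors, variance models, a replicate block and arrays left out. Same-numbered arrays did not deviate together (correlations −0.05 to 0.01), so numbers were not taken as pairs. The Y-linked genes listed beside Xist had no probe set annotated with their symbol alone, so Y-linked genes were not analysed here. Tables and plots were made in Python 3.11.15 (pandas 2.3.3, matplotlib 3.10.9).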

Additional observations from a re-analysis of the deposited data

Results flagged for a closer look

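In 54 sets of 5 arrays checked, the member probe sets and the other purine genes named, 2 had an array far from the rest of its strain, where chance alone gives about 1 in 20. Prps1 1368165_at had a signal of 242.5 on BN array 3, with the next BN array at 132.8. Aldh1l1, a folate enzyme gene, had a signal of 159.0 on LOU array 1, with the next LOU array at 92.0.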

How the results depend on the processing

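The 11 member differences kept their sign under every alternative run, except Ppat and Prps1 1368165_at with 1 array left out, as given above. Without 1 array, 2 to 3 member probe sets, 0 other purine genes, 0 to 1 neighbours and 63 to 127 of all probe sets were called, against 3, 0, 2 and 125, and 1 to 2 of the 5 genes most like Prps2 stayed. All probe sets called numbered 253 without the dimmest 40%, 204 with a pseudocount of 16 and 242 with a variance trend. Without the dimmest 40%, which drops Prps2 1368551_at and Ppat, 1 other purine gene, P2ry2, was called. With median centring or quantile normalization, 1 neighbour was called, and 46 of 114 and 49 of 129 probe sets were higher in BN (40.4% and 38.0%) against 39 of 125 (31.2%). With the replicate block, 1 member probe set, 23 of all probe sets and 0 neighbours were called, and 0 of 10 arrays correlated best with its own number. By Spearman correlation 2 of the 5 genes most like Prps2 stayed. With 10 genes on each side of the members, 2 of 160 neighbours (1.25%) were called.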
